A study of Homo sapiens with 11 samples.

Results

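The genes described here carry out V(D)J recombination, the cutting and rejoining of gene segments that builds antigen receptors, or encode the surrogate light chain of the pre-B cell receptor. They were chosen by name: RAG1, RAG2, DNTT, DCLRE1C, PRKDC, LIG4, XRCC4, IGLL1, VPREB1 and VPREB3. All 10 were found among the 19775 genes measured, through 23 of 41091 probe sets that were listed with 1 gene each. Each gene was read from the probe set that was brightest on average across the arrays, and 6 of the 10 had further probe sets, which are shown as well.

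The RNA came from Reh, an established human cell line of B-cell precursor leukaemia with the ETV6-RUNX1 fusion gene. Every sample, control included, stably expressed miR-125b after viral transduction, and on top of that received a precursor oligonucleotide of miR-99a, of miR-100, of both together, or of a scrambled sequence as control. Single and scrambled oligos were given at 66 µM, and in the combination each microRNA oligo at 33 µM. Transfection was repeated after 72 h and cells were collected 48 h later. There were 3 arrays each for miR-99a, miR-100 and the combination and 2 for control, 11 in all. The arrays of each group carry replicate numbers, 1 to 3 in the treated groups and 1 and 2 in control, so control has no replicate 3. Because all cells come from 1 line and carry extra miR-125b, no array shows cells without that microRNA.

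In V(D)J recombination, the RAG1 and RAG2 proteins cut DNA beside the gene segments and leave hairpin ends. DNA-PKcs, the product of PRKDC, activates the Artemis nuclease of DCLRE1C to open them, terminal transferase (DNTT) adds bases without a template, and DNA ligase IV (LIG4) with its partner XRCC4 seals the joint. In precursor B cells the new heavy chain is then tested with a stand-in for the light chain, made of the IGLL1 and VPREB1 proteins, before a true light chain gene is rearranged.

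The mature sequences of the microRNAs involved are shown because the treatments rest on them, with the seed, bases 2 to 8, in capitals (RefSeq, GRCh38.p14).
miR-99a-5p: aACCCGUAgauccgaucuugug
miR-100-5p: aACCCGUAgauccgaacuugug
miR-125b-5p: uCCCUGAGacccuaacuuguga
Both transfected microRNAs share the seed ACCCGUA and differ at 1 base, U16A, counted from the 5′ end with miR-99a first. The seed of miR-125b, CCCUGAG, is another one.

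The surrogate light chain genes and VPREB3 lie on chromosome 22, and of the 3 VPREB1 alone was read below the array medians in these cells, through its only probe set. Their promoter windows, from 250 bases before to 50 after the start, are shown as a description (RefSeq, GRCh38.p14). Any link between the windows and the levels was not tested. Capitals mark matches on either strand to CCCNNGGG, a motif of the B-cell factor EBF1, and to CAGNTG or CANCTG, E-box motifs read by factors such as the TCF3 product.
IGLL1 (chr22:23580241-23580540, minus strand): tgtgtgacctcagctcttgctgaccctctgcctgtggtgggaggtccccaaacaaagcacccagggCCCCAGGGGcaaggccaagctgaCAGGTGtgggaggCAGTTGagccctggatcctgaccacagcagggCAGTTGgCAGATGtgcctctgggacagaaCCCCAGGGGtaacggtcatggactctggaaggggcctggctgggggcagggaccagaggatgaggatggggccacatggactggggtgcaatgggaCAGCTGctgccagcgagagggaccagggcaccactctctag
VPREB1 (chr22:22244536-22244835, plus strand): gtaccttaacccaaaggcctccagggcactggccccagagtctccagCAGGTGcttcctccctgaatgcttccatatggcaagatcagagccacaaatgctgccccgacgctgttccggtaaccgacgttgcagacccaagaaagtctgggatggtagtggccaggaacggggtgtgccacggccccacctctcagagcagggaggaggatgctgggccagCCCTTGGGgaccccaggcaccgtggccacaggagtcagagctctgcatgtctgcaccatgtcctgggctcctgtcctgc
VPREB3 (chr22:23754376-23754675, minus strand): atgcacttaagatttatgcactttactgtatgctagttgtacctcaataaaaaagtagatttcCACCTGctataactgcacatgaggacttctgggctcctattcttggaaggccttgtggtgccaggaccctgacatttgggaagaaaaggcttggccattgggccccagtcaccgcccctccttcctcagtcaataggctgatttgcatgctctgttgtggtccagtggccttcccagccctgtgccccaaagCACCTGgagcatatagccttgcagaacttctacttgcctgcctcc
The IGLL1 window held 4 EBF1 motif matches, which overlap in pairs, and 5 E-box matches. The VPREB1 window held 1 of each, and the VPREB3 window held 2 E-box matches and 0 EBF1 motif matches. Over 35116 windows of the same length, 19.1% held the EBF1 motif and 49.9% an E-box. The 9 genes of the set with a window had 14 windows, 5 of them overlapping or neighbouring windows of LIG4, and 4 of the 14 held the EBF1 motif and 11 an E-box.

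The cells carried the marker pattern of precursor B cells. All 10 measured markers of that class had a mean log2 value above 8, from 8.63 to 12.6. No marker of mature B and plasma cells (11 measured), T and NK (12), myeloid (8), erythroid and platelet (5) or fibroblast and epithelial cells (8) exceeded 8, and the highest in each class stood at 7.29, 6.86, 7.50, 6.60 and 7.07. The array medians were 5.95 to 5.984 and the arrays correlated at 0.989 to 0.998 over 55 pairs. Values of different probe sets depend on probe affinity, so they are not set against each other. In bulk RNA, fewer cells that express a gene and less of its RNA per cell cannot be told apart.

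The recombinase and terminal transferase genes were read well above the array medians. DNTT (chr10:96304434-96338564) lay at 12.94 to 13.23 on all 11 arrays. RAG1 (chr11:36510353-36579762) lay at 11.06 to 11.42 and its neighbour RAG2 (chr11:36590996-36598236) at 8.58 to 8.94. The other RAG1 probe set, 1554994_at, read 5.17 to 5.50.

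Among the joining genes, PRKDC had 9.64 to 10.34, DCLRE1C (chr10:14897359-14954432) 8.24 to 8.69, LIG4 (chr13:108207442-108218349) 7.65 to 8.22 and XRCC4 (chr5:83077547-83374473) 7.21 to 7.67. Their further probe sets read lower on average, at 6.58 to 8.43 for PRKDC, 5.31 to 8.14 for DCLRE1C, 6.68 to 7.22 for LIG4 and 5.52 to 7.48 for XRCC4. DCLRE1C 242927_at, at 5.31 to 5.62, and XRCC4 210812_at, at 5.52 to 5.71, lay below every array median. Of the surrogate light chain genes, IGLL1 (chr22:23573125-23580290) was at 12.02 to 12.48 and VPREB1 (chr22:22244786-22245515) at 5.31 to 5.65. The VPREB1 values lay below the median of every array, and whether they hold more than background was not tested. VPREB1 had no further probe set to set beside them. VPREB3 (chr22:23752743-23754425), which encodes a VpreB-like protein of B cells, was at 10.59 to 11.54 and spanned the widest range of the 3.

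**Figure D1:**
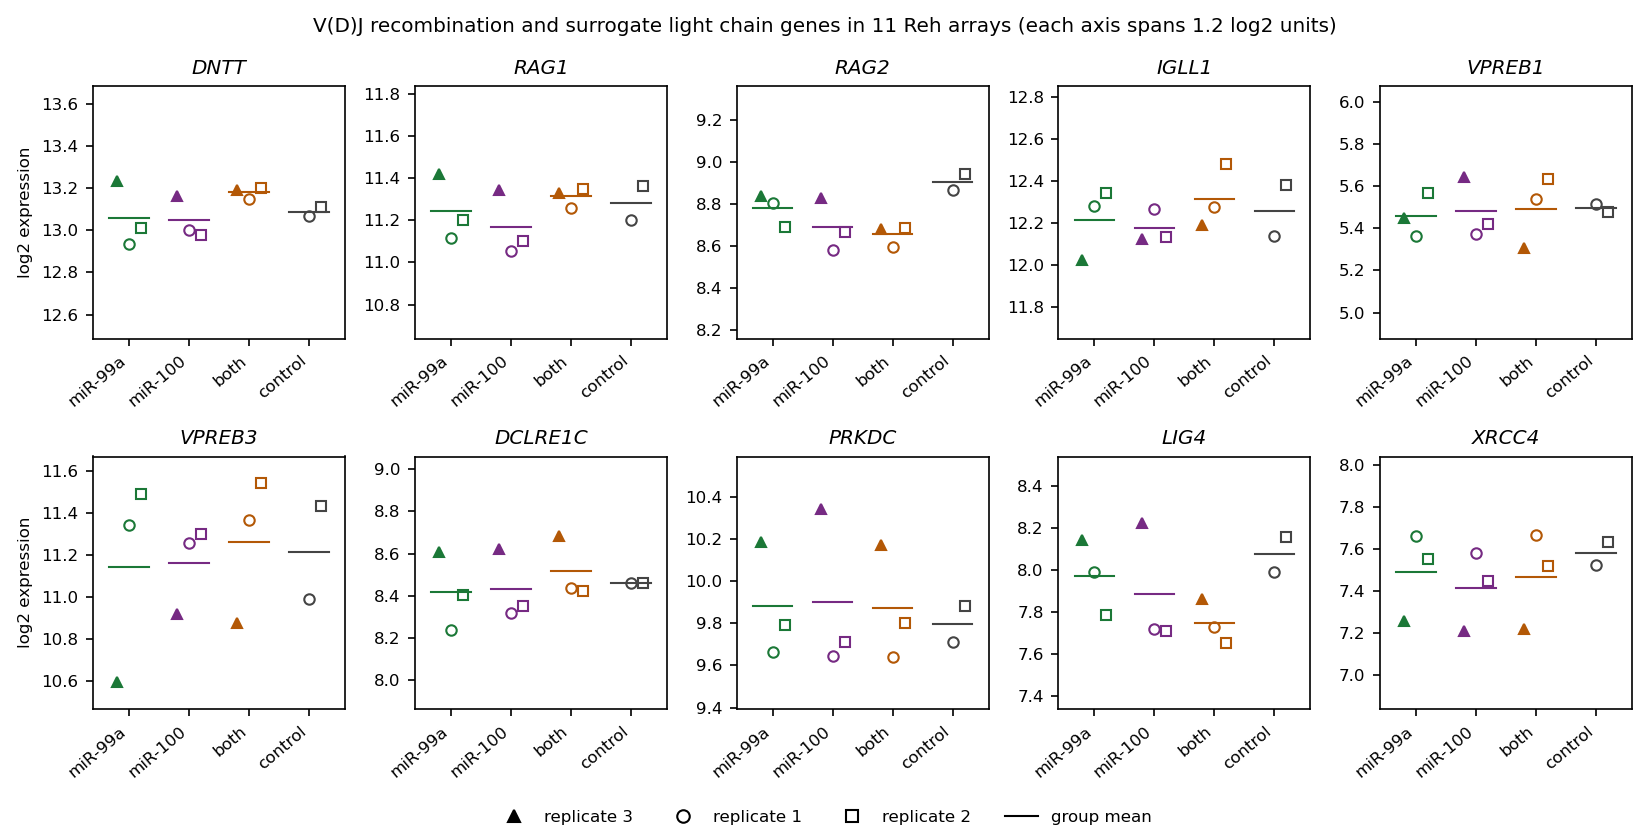
Log2 expression of the 10 genes on each of the 11 arrays, one panel per gene, with treated groups left of control and replicate 3 marked apart from replicates 1 and 2. VPREB3 and XRCC4 are lowest, and PRKDC and DCLRE1C highest, on the 3 replicate 3 arrays, while VPREB1 stays between 5.31 and 5.65 throughout.

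None of the 10 genes passed the test in the comparisons of the microRNA oligos with control. With limma, 0 of 10 passed an adjusted p of 0.05 for miR-99a, for miR-100, for the combination or for the mean of the treatments, where the share of all genes called was also 0%. At an unadjusted p under 0.05 the counts were 0, 1, 1 and 1, the 1 being RAG2 each time, against 1%, 1.54%, 3.66% and 2.47% of all genes. The median difference of the 10 was -0.04 for miR-99a, -0.07 for miR-100 and 0.04 for the combination, against -0.0062, -0.0081 and -0.0043 over all genes. In these fits, differences of the size the intervals below allow could not be told from 0. Control has 2 arrays, and the replicate 3 difference enters the treated means alone and also the spread that the tests use. With the replicate number as a block, 863 genes were called for the combination and 507 for the mean, against 0 here. Fits that allow for the replicate number are given further below.

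RAG2, the partner of RAG1 in the recombinase, had 8.81, 8.69 and 8.84 with miR-99a, 8.58, 8.67 and 8.83 with miR-100, and 8.60, 8.69 and 8.68 in the combination, against 8.87 and 8.94 in control. All 9 treated arrays thus lay below both control arrays, miR-99a replicate 3 being the nearest to them. RAG2 shared that with 1.6% of all genes for the treatments pooled, and with 7.88%, 6.19% and 11.4% of genes for miR-99a, miR-100 and the combination on their own. The RAG2 differences were -0.12 ± 0.08 for miR-99a, -0.21 ± 0.08 for miR-100 and -0.25 ± 0.08 for the combination (SE), with a mean of -0.19 ± 0.07 and a 95% interval of -0.35 to -0.03. The unadjusted p of that mean was 0.0215 and the adjusted p from limma 0.9999, with a range of 0.0682 to 1 over 18 alternatives. The call thus failed under each of these for the mean, while for the combination alone the replicate block gave -0.29 with an adjusted p of 0.0399, against 4.36% of all genes called.

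LIG4, the ligase of the last step, had 7.99, 7.79 and 8.14 with miR-99a, 7.72, 7.71 and 8.22 with miR-100, and 7.73, 7.65 and 7.86 in the combination, against 7.99 and 8.16 in control. Of the 3 treatments, the combination alone had all its arrays below both control arrays, as did 11.4% of all genes in that comparison, and the replicate 3 arrays of the single oligos were near or above control. The differences were -0.10 ± 0.15 for miR-99a, -0.19 ± 0.15 for miR-100 and -0.33 ± 0.15 for the combination (SE), with adjusted p of 0.9998, 1 and 0.9998 from limma. The 95% interval for the combination ran from -0.67 to 0.01.

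Since control has no replicate 3, the comparison was also made over replicates 1 and 2 only. LIG4 then fell by 0.38 ± 0.09 with the combination (limma adjusted p = 0.0306) and by 0.31 ± 0.07 for the mean of the treatments (adjusted p = 0.0461), while 1.47% and 1% of all genes were called. With the replicate number as a block, LIG4 fell by 0.43 ± 0.09 with the combination (adjusted p = 0.00429) and by 0.31 for the mean (adjusted p = 0.0232), where 4.36% and 2.56% of genes were called. Over 12 alternatives the adjusted p for the combination ran from 0.00429 to 1, and 3 of them called it. The second LIG4 probe set, 206235_at, gave -0.24 ± 0.13 for the combination over all arrays, with an adjusted p of 0.9999. Its arrays read 6.73, 6.68 and 6.95 against 7.22 and 6.83 in control, which overlap. Over 9 alternatives its difference ran from -0.43 to -0.05. Of these, 0 called it for the combination (lowest limma adjusted p = 0.061), against 3 of 9 for the first probe set.

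None of the other 8 genes was called. DNTT differed by -0.03 for miR-99a, -0.04 for miR-100 and 0.09 for the combination (SE 0.09), and the 3 combination arrays, at 13.15 to 13.20, lay just above control at 13.07 and 13.11, as 9.11% of all genes did. RAG1 gave -0.04, -0.12 and 0.03 (SE 0.11), IGLL1 -0.04, -0.08 and 0.06 (SE 0.12), and XRCC4 -0.09, -0.17 and -0.11 (SE 0.15), in the same order of treatments. DCLRE1C gave -0.05, -0.03 and 0.05 (SE 0.13) and VPREB1 -0.04, -0.01 and -0.0014 (SE 0.11). VPREB3 and PRKDC had the widest errors. VPREB3 gave -0.07, -0.05 and 0.05 (SE 0.27) over all arrays but 0.20, 0.07 and 0.24 over replicates 1 and 2 only. PRKDC gave 0.08, 0.10 and 0.07 (SE 0.22) over all arrays and -0.07, -0.12 and -0.08 over replicates 1 and 2 only, so the PRKDC difference changed sign for each treatment and the VPREB3 difference for the single oligos. Neither gene was called in either comparison.

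**Figure D2:**
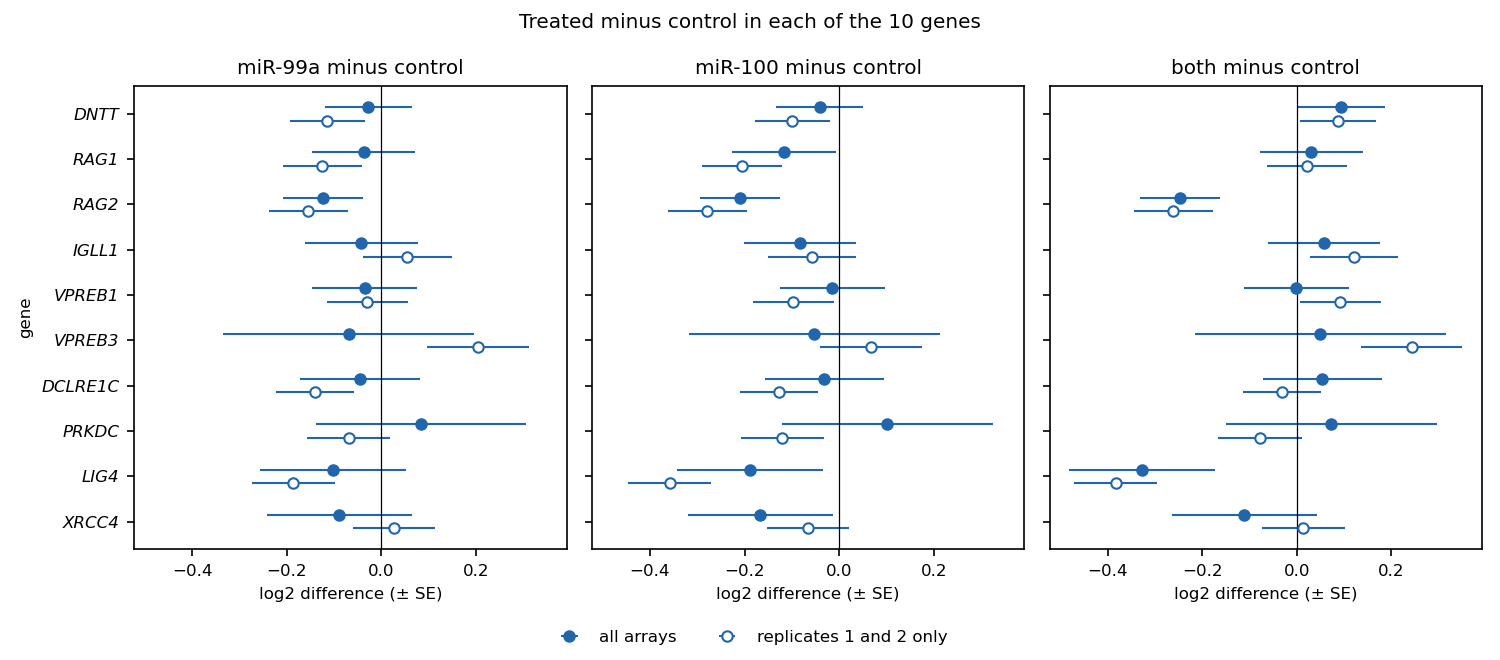
Log2 difference from control of the 10 genes for miR-99a, miR-100 and the combination, with bars for ± 1 SE. Filled points are over all arrays and open points over replicates 1 and 2 only. The RAG2 points are all below 0, over all arrays at -0.12, -0.21 and -0.25. Over all arrays the bars of VPREB3 and PRKDC are the widest.

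The oligos were also set against each other. Between miR-100 and miR-99a, which share a seed, 0 of 10 genes passed in limma and 0 had an unadjusted p under 0.05, against 0% and 0.981% of all genes. The interval of RAG2 ran from -0.25 to 0.08 and that of VPREB3 from -0.51 to 0.54, so the data leave room for differences of that size. Set against the average of miR-99a and miR-100 given alone, the combination also had 0 of 10 genes called, and 0 at an unadjusted p under 0.05, against 0% and 2.28% of all genes, and the largest differences were -0.18 ± 0.12 for LIG4 and 0.13 ± 0.07 for DNTT (SE).

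One of the 3 DNTT probe sets behaved unlike the others, and it was singled out after its values were seen. Probe set 1566362_at, which is listed with DNTT but with no transcript accession, had 7.38, 7.76 and 6.90 with miR-99a, 6.96, 6.93 and 6.80 with miR-100, and 6.97, 6.78 and 6.98 in the combination, against 7.90 and 7.81 in control. All 9 treated arrays lay below both control arrays, as did 1.57% of all probe sets, and miR-99a replicates 1 and 2 were nearest to control. The differences were -0.51 ± 0.18 for miR-99a, -0.96 ± 0.18 for miR-100 and -0.95 ± 0.18 for the combination (SE).

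Their mean, -0.80 ± 0.16 with a 95% interval of -1.15 to -0.46, was the most negative of 41091 probe sets, and its p ranked 3 among them. The unadjusted p was 0.000283, and limma's adjusted p over all probe sets was 1, so the difference was not called over all arrays. Over replicates 1 and 2 only it was called for miR-100 (-0.91, adjusted p = 0.000623) and the combination (-0.98, adjusted p = 0.000175), but not for miR-99a (-0.28, adjusted p = 0.482), while 0.0073% and 0.64% of all probe sets were called for miR-100 and the combination. The difference was below 0 in all 9 alternatives for each treatment, and nearest to 0 at -0.28 for miR-99a, -0.88 for miR-100 and -0.87 for the combination. The adjusted p ranged from 1.37e-05 to 1, and 3 of 9 alternatives called it for miR-100 and for the combination, 0 of 9 for miR-99a.

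The brighter DNTT probe sets showed nothing of that size. Probe set 210487_at had 12.26, 12.41 and 12.64 with miR-99a, 12.25, 12.27 and 12.63 with miR-100, and 12.36, 12.51 and 12.57 in the combination, against 12.51 and 12.52 in control, and the ranges overlap for each treatment. The probe set used for the gene, 1566363_at, had 12.94 to 13.23 in treated cells, against 13.07 and 13.11 in control. What 1566362_at measures was not tested.

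**Figure D3:**
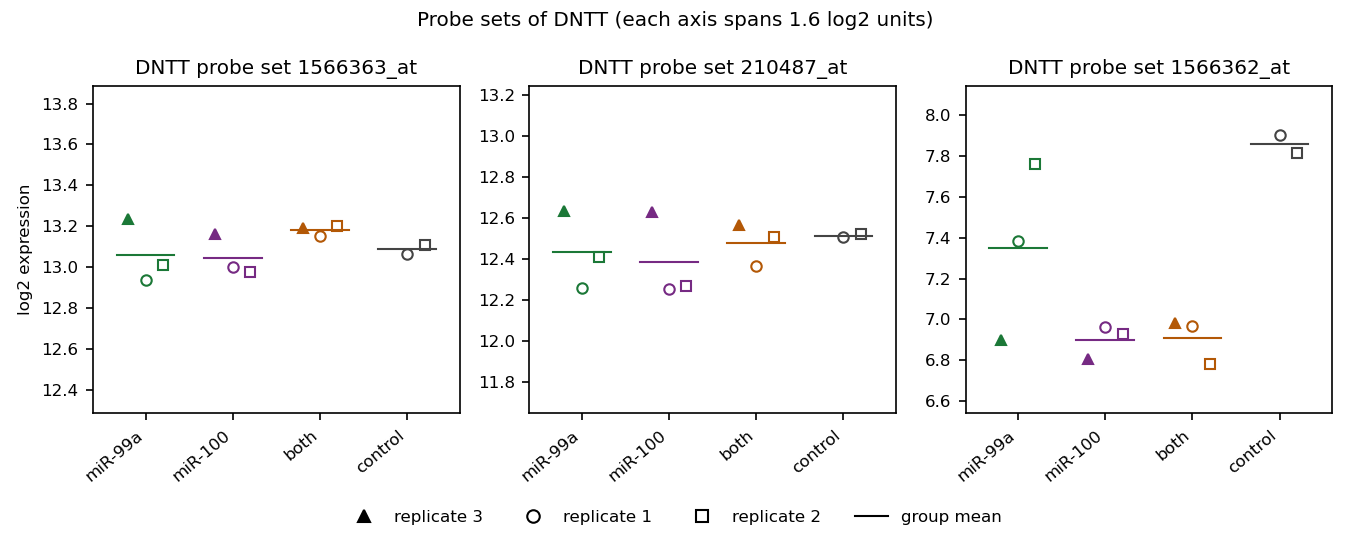
Log2 values of the 3 DNTT probe sets on each array, treated groups left of control. Only for 1566362_at do all 9 treated arrays, at 6.78 to 7.76, lie below the control arrays at 7.90 and 7.81.

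The replicate number separated several of these genes. Within the treated groups, replicate 3 was compared with replicates 1 and 2 with treatment in the model. Of the 10 genes, 7 passed limma's adjusted p of 0.05, 4 higher and 3 lower in replicate 3, against 29.3% of all genes, 17.1% higher and 12.2% lower. The median difference of the 10 was 0.13, against 0.0008 over all genes. When the 9888 genes at or above the median level were fitted alone, 5641 of them were called, with a median of 0.06. Of the 10 genes, 9 were in that fit and 7 of the 9 were called. No label says what the number marks, so a batch, a culture or a day cannot be told apart here.

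PRKDC and VPREB3 differed most. PRKDC had 10.19, 10.34 and 10.17 in replicate 3 of miR-99a, miR-100 and the combination, against 9.66 and 9.79, 9.64 and 9.71, and 9.64 and 9.80 in replicates 1 and 2 of the same treatments. Every replicate 3 array lay above every other, control at 9.71 and 9.88 included. PRKDC rose in replicate 3 by 0.53 ± 0.07 (SE), a fold of 1.44, with a limma adjusted p of 1.48e-08. All 3 PRKDC probe sets passed in the same direction.

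VPREB3 had 10.59, 10.92 and 10.88 in replicate 3, against 11.34 and 11.49 with miR-99a, 11.26 and 11.30 with miR-100 and 11.37 and 11.54 in the combination in replicates 1 and 2. The replicate 3 arrays were all below the other treated arrays, and below control at 10.99 and 11.43. VPREB3 fell by 0.59 ± 0.07 in replicate 3 (SE), a fold of 0.666, with a limma adjusted p of 4.50e-09. Control replicate 1, at 10.99, lay nearer to the replicate 3 arrays than to control replicate 2.

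The remaining joining genes moved in opposite directions. DCLRE1C, the Artemis gene, had 8.61, 8.62 and 8.69 in replicate 3, against 8.24 to 8.44 over replicates 1 and 2, and was higher by 0.28 ± 0.07 (SE, limma adjusted p = 0.000662). LIG4 had 8.14, 8.22 and 7.86 in replicate 3, against 7.65 to 7.99, and was higher by 0.31 ± 0.07 (SE, adjusted p = 0.000321), although the combination array overlapped the others. XRCC4, whose product binds and stabilises the ligase, had 7.26, 7.21 and 7.22 in replicate 3, against 7.45 to 7.67, and fell by 0.34 ± 0.07 (SE, adjusted p = 4.58e-05). The groups did not overlap for DCLRE1C and XRCC4, nor for PRKDC and VPREB3, so 4 of 10 genes were separated, 2 higher and 2 lower in replicate 3, against 25.9% of all genes, 14.9% higher and 11% lower. These 4 genes and LIG4 were called in all 13 alternatives. Thus LIG4 and XRCC4, whose proteins form 1 complex, differed in opposite directions between the same arrays.

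RAG1 and IGLL1 passed narrowly. RAG1 had 11.42, 11.34 and 11.33 in replicate 3, against 11.06 to 11.35 in replicates 1 and 2, and was higher by 0.18 ± 0.07 (SE, limma adjusted p = 0.0295, range 4.70e-05 to 0.339 over 13 alternatives, 7 of which called it). The call ended with the mean over probe sets (0.08), with a prior trend (adjusted p = 0.083), and without miR-99a replicate 1, miR-99a replicate 3, miR-100 replicate 1 or miR-100 replicate 3, where the adjusted p was 0.0907, 0.229, 0.0707 and 0.18. IGLL1 had 12.02, 12.13 and 12.19 in replicate 3, against 12.14 to 12.48, and fell by 0.18 ± 0.07 (SE, adjusted p = 0.0323). Quantile normalization turned the IGLL1 difference to 0.02 (adjusted p = 0.813) and raised that of RAG1 to 0.35, so both depend on the scaling. For IGLL1, 5 of 13 alternatives called the difference, with adjusted p from 0.0128 to 0.813. The IGLL1 call also ended with the prior trend (adjusted p = 0.0617) and without replicate 1, 2 or 3 of miR-99a, replicate 1 of miR-100, or replicate 2 or 3 of the combination (0.0585, 0.0717, 0.298, 0.0641, 0.0865 and 0.117).

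DNTT, RAG2 and VPREB1 did not pass. DNTT had 13.23, 13.16 and 13.19 in replicate 3, against 12.94 to 13.20, a difference of 0.15 ± 0.07 (SE, limma adjusted p = 0.0839). It passed after quantile normalization (0.31, adjusted p = 5.43e-05) and without the combination replicate 3 array (0.22, adjusted p = 0.0387), and its adjusted p reached 0.501 over the 13 alternatives. RAG2 gave 0.11 ± 0.07 (adjusted p = 0.229) and VPREB1 -0.02 ± 0.07 (adjusted p = 0.917).

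**Figure D4:**
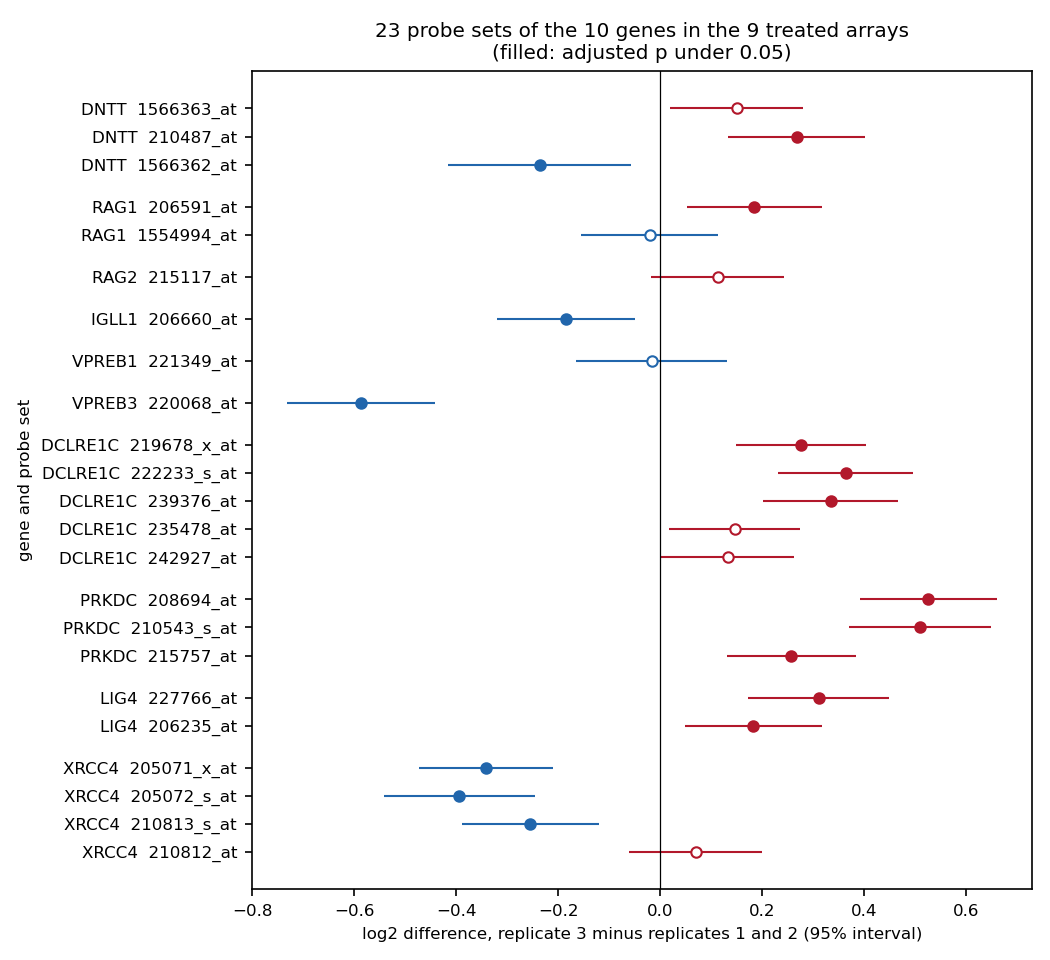
Log2 difference of replicate 3 from replicates 1 and 2 of the treated groups for all 23 probe sets of the 10 genes, with 95% intervals. All 3 PRKDC and all 5 DCLRE1C probe sets lie above 0, and 3 of 4 XRCC4 probe sets lie below 0.

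The further probe sets mostly went with the first. Of all 23, 16 passed in limma, 10 higher and 6 lower in replicate 3, against 24.5% of all probe sets. The 5 DCLRE1C probe sets were all above 0, at 0.13 to 0.36, and 3 passed. Both LIG4 probe sets passed, at 0.31 and 0.18, but the second, 206235_at, kept its call in 3 of 10 alternatives (adjusted p 0.00663 to 0.377). Its call ended after quantile normalization and without any 1 array of miR-100 or of the combination, at 0.11 to 0.18. In XRCC4, 3 of 4 probe sets passed at -0.39 to -0.25, while the dimmest, 210812_at, gave 0.07. Probe sets of DNTT disagreed, with 0.27 for 210487_at (adjusted p = 0.00184) and -0.24 for 1566362_at (adjusted p = 0.0461). For 1566362_at, replicate 3 read 6.90, against 7.38 and 7.76, with miR-99a, 6.80, against 6.96 and 6.93, with miR-100, and 6.98, against 6.97 and 6.78, in the combination. Its call held in 5 of 10 alternatives, over -0.41 to -0.02, and ended without miR-99a replicate 2 or 3, miR-100 replicate 1 or 3, or combination replicate 1 (adjusted p = 0.185, 0.94, 0.0643, 0.101 and 0.0818).

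The replicate 3 difference was present under each oligo for the leading genes. PRKDC differed by 0.46 with miR-99a, 0.67 with miR-100 and 0.45 in the combination, VPREB3 by -0.82, -0.36 and -0.58, and XRCC4 by -0.35, -0.30 and -0.38. A test of whether the difference itself varied with treatment passed for 0 of 10 genes in limma, with adjusted p from 0.566 to 0.9895, and 2 genes, VPREB1 and VPREB3, had an unadjusted p under 0.05. The share of all genes at either threshold is not given here, so these counts are not read as a result about the 10 genes. VPREB1, low on the scale, gave -0.02, 0.25 and -0.28.

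Measures of RNA and of other cell types stood beside this as follows. The log2 difference between the 3′ and 5′ probe sets of GAPDH was 0.562 to 0.715 in replicate 3, against 0.530 to 0.630 in replicates 1 and 2, and for ACTB 2.52 to 2.85 against 2.45 to 3.17. The mean over precursor B markers was 10.47 to 10.60 in replicate 3, against 10.48 to 10.74, that over T and NK markers 5.85 to 5.89 against 5.88 to 5.98, and that over mature B and plasma markers 5.80 to 5.85 against 5.83 to 5.91. Myeloid markers averaged 5.92 to 5.96 against 5.88 to 5.96, erythroid and platelet markers 5.83 to 5.96 against 5.80 to 5.97, and fibroblast and epithelial markers 5.84 to 5.88 against 5.82 to 5.87. Among the 10 precursor B markers 1 was called higher and 3 lower in replicate 3, with MME at 0.27, CD9 at -0.73, CD79A at -0.56 and TCF3 at -0.26. After quantile normalization limma did not call TCF3, at -0.09 (adjusted p = 0.2295). Among the other classes, 1 of 11 mature B and plasma markers was called, SDC1 at -0.17, and 0 in the rest. The part of these measures in the replicate difference was not tested.

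Partners of these genes were followed through 3 lists. Of 24 other end-joining and break-response genes, 22 were measured, and in replicate 3 limma called 14 higher and 1 lower, where 17.1% of all genes were higher and 12.2% lower. The list median was 0.27, against 0.0008 over all genes. Among the 9888 genes at or above the median level, fitted alone, 5641 were called, with a median of 0.06. RIF1, which steers breaks away from resection, was higher by 0.56, ATM, the kinase that answers a break, by 0.50, and RAD50, of the complex that senses breaks, by 0.49, while H2AX, the histone variant marked at breaks, fell by 0.54. Of the 22, 17 lay above 0, the direction of PRKDC, DCLRE1C and LIG4, and 5 below, the direction of XRCC4. Over all genes, 49.7% lay below 0. Quantile normalization called 14 higher and 2 lower, the added gene being PAXX at -0.19 (adjusted p = 0.0064). In refits that left out 1 array each, 11 to 14 were higher and 1 to 2 lower.

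Of 29 accessory and regulatory genes, 28 were measured, and 12 were called higher and 6 lower in replicate 3, against 17.1% and 12.2% of all genes, with a median of 0.13. The genes at or above the median level, fitted alone, had 5641 of 9888 called and a median of 0.06. DNTTIP2, whose product binds terminal transferase, was higher by 0.58 and the E-protein gene TCF12 by 0.43, while SOX4, a transcription factor gene of precursor B cells, fell by 0.56 and BRWD1, a chromatin reader gene linked in mice to Igk recombination, by 0.53. Leaving out 1 array at a time gave 7 to 13 higher and 5 to 7 lower, and quantile normalization 17 higher and 6 lower.

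Of 24 partners of the pre-B receptor, 22 were measured, and 7 were called higher and 4 lower, against 17.1% and 12.2% of all genes, with a median of 0.04. Genes at or above the median level, fitted alone, had 5641 of 9888 called and a median of 0.06, so this list did not stand out. CD79A, a signalling chain of the receptor, fell by 0.56 and LGALS1, encoding a ligand of the surrogate light chain, by 0.35, while the receptor gene IL7R was higher by 0.42 and the kinase gene BTK by 0.41. After quantile normalization 8 were higher and 4 lower, and LGALS1 then fell by 0.18 (adjusted p = 0.0209). Leaving out 1 array at a time gave 2 to 7 higher and 2 to 4 lower.

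Against control, 0 genes of these 3 lists passed for any treatment in limma over all arrays without a block. With the replicate number as a block, 7 passed for the combination and 7 for the mean of the treatments, and over replicates 1 and 2 only 2 passed for the combination. The smallest p for the mean of the treatments belonged to NBN (-0.20), CCNA2 (-0.18) and IGLL5 (0.06) of the lists in turn, each with an adjusted p of 0.9999, and 0 genes of the lists had an unadjusted p under 0.05 there. The list medians of that comparison were -0.03, -0.03 and 0.01, against -0.0046 over all genes.

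**Figure D5:**
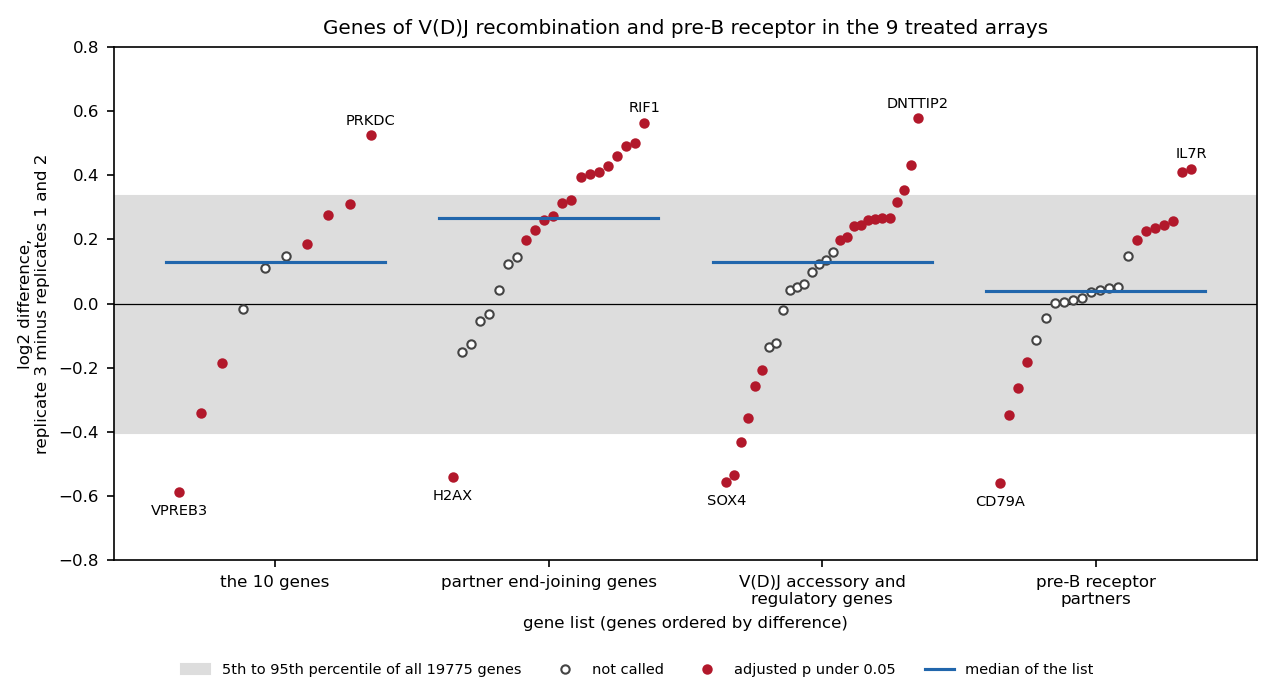
Log2 difference of replicate 3 from replicates 1 and 2 for each gene of the 10 and of the 3 partner lists, with list medians. The end-joining partners have the highest median, 0.27, and H2AX is the lowest of them at -0.54.

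The level of each gene over the 11 arrays was compared with 5552 genes of mean 8 or more, as a description. Closest to PRKDC were NCAPD3 (r = 0.987) and HERC2 (0.985), closest to VPREB3 were SMDT1 (0.993) and ROMO1 (0.987), and closest to DCLRE1C were VPS45 (0.967) and EXOSC10 (0.960). DNTT was closest to RPL19 (0.942) and PCLO (0.940), RAG1 to PGK1 (0.958) and EIF3L (0.935), RAG2 to LNPK (0.938) and METTL14 (0.924), and IGLL1 to TRMT5 (0.949) and C12orf57 (0.942). These values share the replicate 3 arrays. After the means of replicate 3 and of the rest were subtracted, the closest genes became MRPS18B and ASMTL for PRKDC, DLEU2 and SMDT1 for VPREB3, VPS45 and RPL3 for DCLRE1C, HLA-DPA1 and MACROH2A1 for DNTT, PGK1 and IRAG2 for RAG1, and BACH1 and HIF1A for RAG2, while IGLL1 stayed nearest to C12orf57 and TRMT5.

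Within the set, over the same 11 arrays, DNTT and RAG1 had r = 0.908, DCLRE1C and PRKDC 0.879, LIG4 and RAG2 0.873, and IGLL1 and VPREB3 0.872. XRCC4 ran against PRKDC (r = -0.894) and DCLRE1C (r = -0.830). RAG1 and RAG2, which are neighbours in the genome and act together, had r = 0.461. All these values within the set also share the replicate 3 arrays, whose means were not subtracted here.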

How the data were processed

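RNA from 11 samples of Reh cells was labelled with the maker's one-cycle kit and hybridised to whole-genome Affymetrix arrays, per the labels' protocols. The authors deposited 1 table of log2 values, a scale read from their range of 4.398 to 14.839. How they were summarised, background-corrected and normalised is not given in the sources used here. Of 54675 probe sets, 62 were controls, 42898 were listed with a gene and 1801 of these with several. The 41091 kept gave 19775 genes, each read from its brightest probe set on average, and 41037 probe sets matched RefSeq (GRCh38.p14).

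Group means over all 11 arrays were fitted with limma 3.58.1 in R 4.3.3 (lmFit, eBayes), on the deposited values. P-values are 2-sided, adjusted by Benjamini-Hochberg over all genes (or all probe sets), and called under 0.05. Replicate 3 was compared in the 9 treated arrays with treatment as covariate. The fit was tested on simulated data with independent noise, in which replicate 3 was shifted for far fewer genes than were called here. That run does not show how the tests against control behave with the replicate 3 difference of these arrays. No label says that replicates were separate cultures, so p-values measure the spread between these arrays, which may be technical. The number of arrays limits the precision.

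The genes, lists, tests and markers were chosen with earlier results of these data known. From each partner list, the 4 called genes with the largest difference were named, or the 1 with the smallest p where none was called. Alternatives were quantile normalization, genes at or above the median level, the mean over probe sets, a prior trend, the replicate number as a block, replicate 3 as a term, replicates 1 and 2 only, and leaving out each array. Quantile normalization for levels, and all alternatives for single probe sets and partner lists, were added after seeing the data.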

Additional observations from a re-analysis of the deposited data

How the results depend on the processing

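Over all arrays and without replicate terms, 0 of the 10 genes were called against control. Arrays of different treatments that share a number deviated together (r = 0.168 to 0.816 in 9 pairs, all above 0.1). Of 6 pairs with control, 3 did (-0.152 to 0.438), those of replicate 2. The 2 control arrays deviate from their mean by equal and opposite amounts, so these pairs cannot decide whether control shares the pairing. No label says what the number marks, and the pairing was kept as an alternative. Control has no replicate 3, so its pairs cannot bear on the replicate 3 difference. Over all arrays that difference enters the treated means but not the control mean, and the 2 cannot be told apart there. It also enters the spread that the fit over all arrays uses. With the replicate block, 2 of the 10 genes were called for the combination (LIG4 and RAG2) and 1 for the mean of the treatments (LIG4). With replicate 3 as a term these counts were 1 and 0, and over replicates 1 and 2 only 1 and 1. Of the 23 probe sets, against 0 over all arrays, the block, the term and replicates 1 and 2 called 1, 1 and 1 for miR-100, 3, 2 and 2 for the combination, and 2, 1 and 1 for the mean. Over replicates 1 and 2 only, 0.0073% and 0.64% of all probe sets were called for miR-100 and the combination. For the other counts that share is not given here, so they are not read as a result about these genes. Over all genes, the block called 5 for miR-99a, 7 for miR-100, 863 for the combination and 507 for the mean, against 0 without it. The term called 443 for the combination and 24 for the mean, and replicates 1 and 2 alone 290 and 198. For replicate 3, quantile normalization turned the IGLL1 difference to 0.024, and 5 to 7 of the 10 genes were called over all alternatives. Leaving out 1 array gave 12 to 15 called probe sets. In 155 results of single genes the sign differed from that over all arrays with neither value called. The causes were not tested. Other limits are 2 control arrays, a control without replicate 3, and VPREB1 low on the scale.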

Other observations

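With the replicate number as a block, several partner genes were called for the combination against control, where 4.36% of all genes were called. NBN, a subunit of the break-sensing complex, fell by 0.36 (limma adjusted p = 0.00912), DNTTIP2 by 0.37 (adjusted p = 0.00791), the cyclin gene CCNA2 by 0.29 (adjusted p = 0.041) and the kinase gene BTK by 0.36 (adjusted p = 0.00987). XRCC5 and RIF1 each fell by 0.28 (adjusted p = 0.0482), and H2AX was higher by 0.32 (adjusted p = 0.0188). For the mean of the treatments, where the block called 2.56% of all genes, 7 list genes were called, XRCC5 (-0.27), NBN (-0.29), RAD50 (-0.25), RIF1 (-0.27), DNTTIP2 (-0.30) and BTK (-0.28) lower and CD79A (0.29) higher, with adjusted p of 0.0232 to 0.0471. Over replicates 1 and 2 only, H2AX (0.33, adjusted p = 0.0403) and NBN (-0.35, adjusted p = 0.0479) were called among the 3 lists, and over all arrays without the block 0 were called. These genes were named after their values were seen.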
